A study of Mus musculus with 8 samples.

Results

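The genes described are the mitochondrial carriers of the Slc25 family, taken as every entry of the deposited expression tables whose gene name is Slc25a followed by a number. The rule found 45 genes among the 27261 features of the αSMA table and 47 among the 24662 features of the CMV table, and 45 genes were in both. Slc25a41 and Slc25a54 were found in the CMV table only, at 0 in all 4 libraries. Family members that carry other names, such as the uncoupling proteins Ucp1 to Ucp3, were outside the rule and are given further on as a separate list. Slc25 proteins sit in the inner mitochondrial membrane, apart from a few in the outer or the peroxisomal membrane, and exchange metabolites, nucleotides, cofactors and ions between cytosol and matrix. In hepatocytes they join the cytosolic and mitochondrial steps of pathways such as the urea cycle, gluconeogenesis, fatty acid oxidation and lipogenesis. Each carrier is known mainly by its substrate, and the results are ordered that way.

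Messenger RNA of whole mouse liver was sequenced in 8 libraries of poly(A) RNA, 2 in each of 4 groups, from mice given adeno-associated virus of serotype 6 (AAV6). The groups were AAV6-αSMA-shThbs2 (replicates 3 and 4) with its control AAV6-αSMA-NC (replicates 3 and 4), and AAV6-CMV-shThbs2 (replicates 1 and 2) with its control AAV6-CMV-NC (replicates 1 and 2). The insert shThbs2 is a short hairpin RNA against Thbs2, which encodes the matrix glycoprotein thrombospondin 2, and the NC vectors were the controls. The CMV promoter is active in many cell types, whereas the αSMA promoter is that of the smooth muscle actin made by activated hepatic stellate cells and smooth muscle. The labels name no strain, age, sex, dose or liver injury for any group. Libraries of the αSMA arm were sequenced on a DNBSEQ-T7 and those of the CMV arm on a HiSeq2500, at different providers. The arms therefore differ in vector, platform and provider at once, and these cannot be told apart. The labels do not say that each library is a separate mouse. Where it is not, p-values cover technical spread only. Values are FPKM, fragments per kilobase of transcript scaled to the mapped fragments of a library, and the depth of the libraries is unknown. The tables were normalised separately, so levels were compared only within an arm.

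Thbs2 itself measured 0.85 and 1.14 FPKM in the αSMA shThbs2 libraries, against 1.37 and 1.47 FPKM in the αSMA NC libraries. Its CMV values were 0.695 and 0.614 FPKM with shThbs2, against 1.27 and 0.922 FPKM with NC. Both shThbs2 libraries lay below both NC libraries in each arm, but neither difference passed in a limma fit of log2(FPKM + 1) without a filter on low values (adjusted p = 0.309 in the αSMA arm and 0.600 in the CMV arm). That fit is given because Thbs2 averaged under 1 FPKM in the CMV arm, the limit for testing used for the carriers. The summed FPKM of the hepatocyte markers was far above the sum for any other liver cell type in all 8 libraries. RNA from mitochondrial DNA accounted for 23.1% and 24.6% of all FPKM in the αSMA shThbs2 libraries, against 12.2% and 12.1% in the αSMA NC libraries. A large part was from 1 gene, mt-Atp8, at 122490 and 148384 FPKM with shThbs2, against 35778 and 43409 FPKM with NC. The FPKM sum over all features also moved with the group in the αSMA arm, at 1253740 and 1225210 with shThbs2 against 941530 and 924060 with NC. The share of RNA from mitochondrial DNA was 14.8% and 15.8% with shThbs2 in the CMV arm, and 13.3% and 13.9% with NC. The part that these shares have in the results below was not tested.

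The carriers together held 1815 and 1994 FPKM in the αSMA shThbs2 libraries, against 1676 and 1557 FPKM in the αSMA NC libraries. Under the CMV vector they held 1816 and 1910 FPKM with shThbs2, against 1603 and 1642 FPKM with NC. The sum was thus higher in both shThbs2 libraries of each arm, without overlap. As a share of all FPKM the carriers went the other way in the αSMA arm, with 0.145% and 0.163% in shThbs2 against 0.178% and 0.169% in NC, lower without overlap. As a share of all FPKM from the nuclear genome the αSMA groups overlapped, with 0.188% and 0.216% in shThbs2 and 0.203% and 0.192% in NC. The nuclear share did not overlap in the CMV arm, with 0.414% and 0.451% in shThbs2 against 0.367% and 0.388% in NC.

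A few carriers dominated. The phosphate carrier Slc25a3, the ADP/ATP exchanger Slc25a5 and the glutathione importer Slc25a39 together took 47.3% and 47.8% of the carriers' FPKM in the αSMA shThbs2 libraries, against 51.8% and 52.1% in the αSMA NC libraries. The same 3 genes took 42.4% and 40.9% in the CMV shThbs2 libraries, against 42.7% and 46.4% in the CMV NC libraries. Carriers with no agreed substrate, most of them Slc25a47 by FPKM, made up 13.6% and 10.4% of the total with shThbs2 in the αSMA arm, against 3.74% and 3.98% with NC. Their share in the CMV arm was 12.5% and 13.5% with shThbs2, against 10.8% and 6.23% with NC. The carriers related to uncoupling proteins went the other way in the αSMA arm, with 0.358% and 0.625% of the total in shThbs2 libraries against 2.14% and 1.84% in NC libraries.

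**Figure D1:**
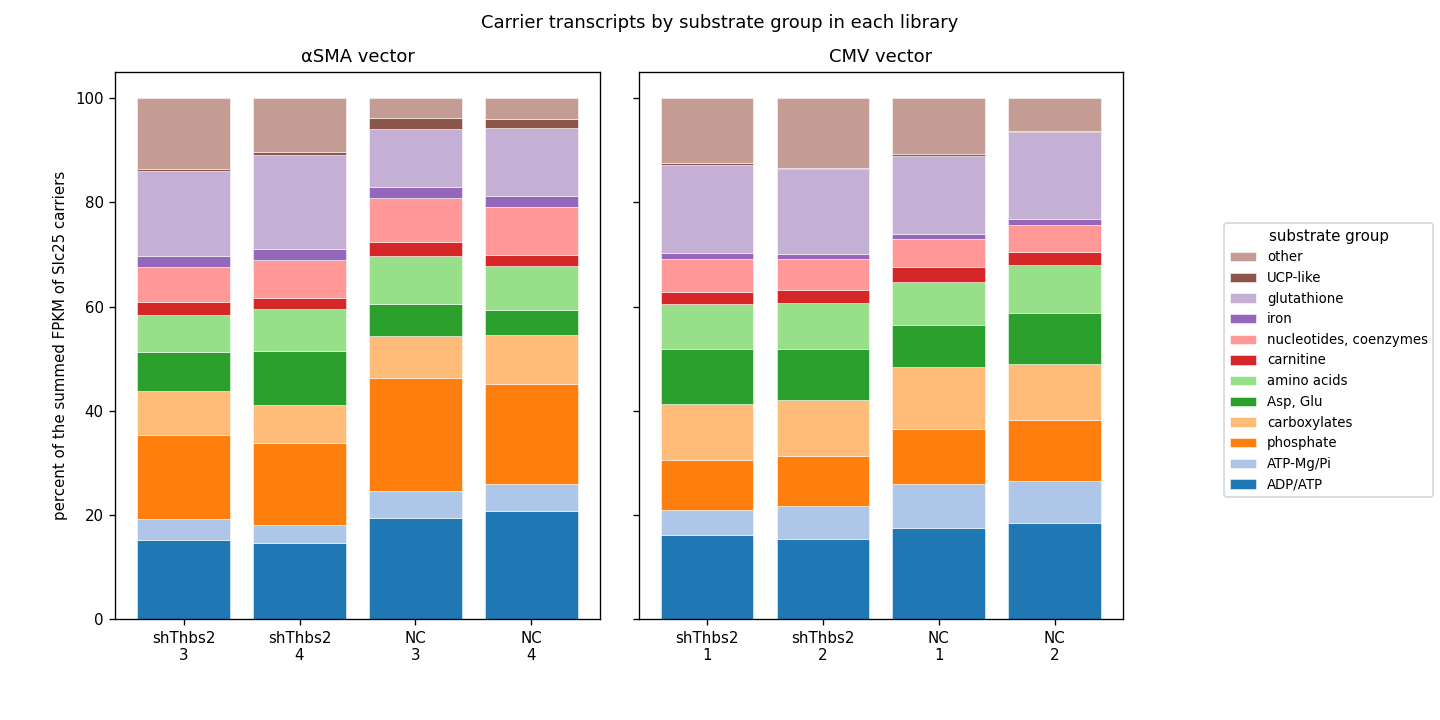
Share of the summed FPKM of all Slc25 carriers (vertical axis, percent) taken by each substrate group, one stacked bar per library, with the αSMA arm on the left and the CMV arm on the right. The uppermost segment, carriers with no agreed substrate, is 13.6% and 10.4% in the αSMA shThbs2 libraries and 3.74% and 3.98% in the αSMA NC libraries.

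The carriers were tested inside a model of all features that averaged 1 FPKM or more in the arm (limma on log2(FPKM + 1), two-sided, p adjusted by Benjamini-Hochberg over all features tested). This left 37 carriers in the αSMA arm and 36 in the CMV arm. The 8 carriers under that limit in the αSMA arm never exceeded 0.95 FPKM in a library, and the 11 under it in the CMV arm never exceeded 1.45 FPKM. They included Slc25a31, the ADP/ATP exchanger of the testis, at no more than 0.17 FPKM in the αSMA arm and 0.0425 FPKM in the CMV arm. An exact permutation test of 2 libraries against 2 cannot give a p under 0.333, so calls rest on the spread shared across features by the model. Log2 changes are on the log2(FPKM + 1) scale, which understates the change of genes with low FPKM.

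With the αSMA vector 5 carriers rose and 4 fell in shThbs2 livers, and 28 did not pass the test. The 5 that rose are 13.5% of the carriers tested, and 13.3% of all features rose. The 4 that fell are 10.8%, and 22.8% of all features fell. The carriers passed in either direction in 24.3% of cases and all features in 36.1%, so the family was called no more often than the liver transcriptome of this arm. Groups did not overlap for 25 carriers, 67.6%, against 74.9% of all features. At an unadjusted p under 0.05, 6 carriers were higher (16.2%, against 18.5% of all features) and 5 lower (13.5%, against 31.4%). The log2 change was above 0 for 19 carriers, 51.4%, against 40.8% of all features. The median log2 change was 0.02 over the carriers and -0.16 over all features. Rescaling each library to the same FPKM sum moved the median of all features to -0.51 and that of the carriers to -0.39, and then 3 carriers rose and 13 fell. Of all features 52.1% then passed in either direction. With the sum taken over nuclear features, 3 carriers rose and 8 fell, and with median centring 8 rose and 3 fell, where the carriers' median was -0.18 and 0.24. All features passed in 42.4% and 33.6% of cases under these scalings, in the same order. Measured from the median of all features, the carriers' median lay between 0.12 and 0.22 higher under these scalings and quantile normalization. Without a filter on low values both medians were near 0, at -0.037 for the carriers and -0.027 for all features. Without NC replicate 3 or NC replicate 4 no carrier passed, and only 53 and 46 of all features did. Without shThbs2 replicate 3 fewer of all features passed too, and the carriers that still did were Slc25a10, Slc25a21 and Slc25a47.

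With the CMV vector no carrier passed, and only 2 of all 10916 features did, which is 0.0183%. At an unadjusted p under 0.05, 8 carriers were higher and 2 lower in shThbs2 livers. That is 22.2% and 5.56% of the carriers tested, beside 5.73% and 4.47% of all features. The log2 change was above 0 for 25 carriers, 69.4%, against 56.3% of all features, and its median was 0.17 over carriers and 0.03 over all features. The carriers' median exceeded that of all features by 0.14, but by only 0.019 without NC replicate 2 and 0.053 without shThbs2 replicate 2. Groups did not overlap for 20 carriers, 55.6% against 42.0% of all features, with shThbs2 higher for 14 (38.9%, against 24.5% of all features) and lower for 6 (16.7%, against 17.5%). Without NC replicate 1 of this arm the log2 changes were 1.04 for Slc25a33 and 1.37 for Slc25a47. Without NC replicate 2 they were 1.18 and 0.53, in the same order.

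**Figure D2:**
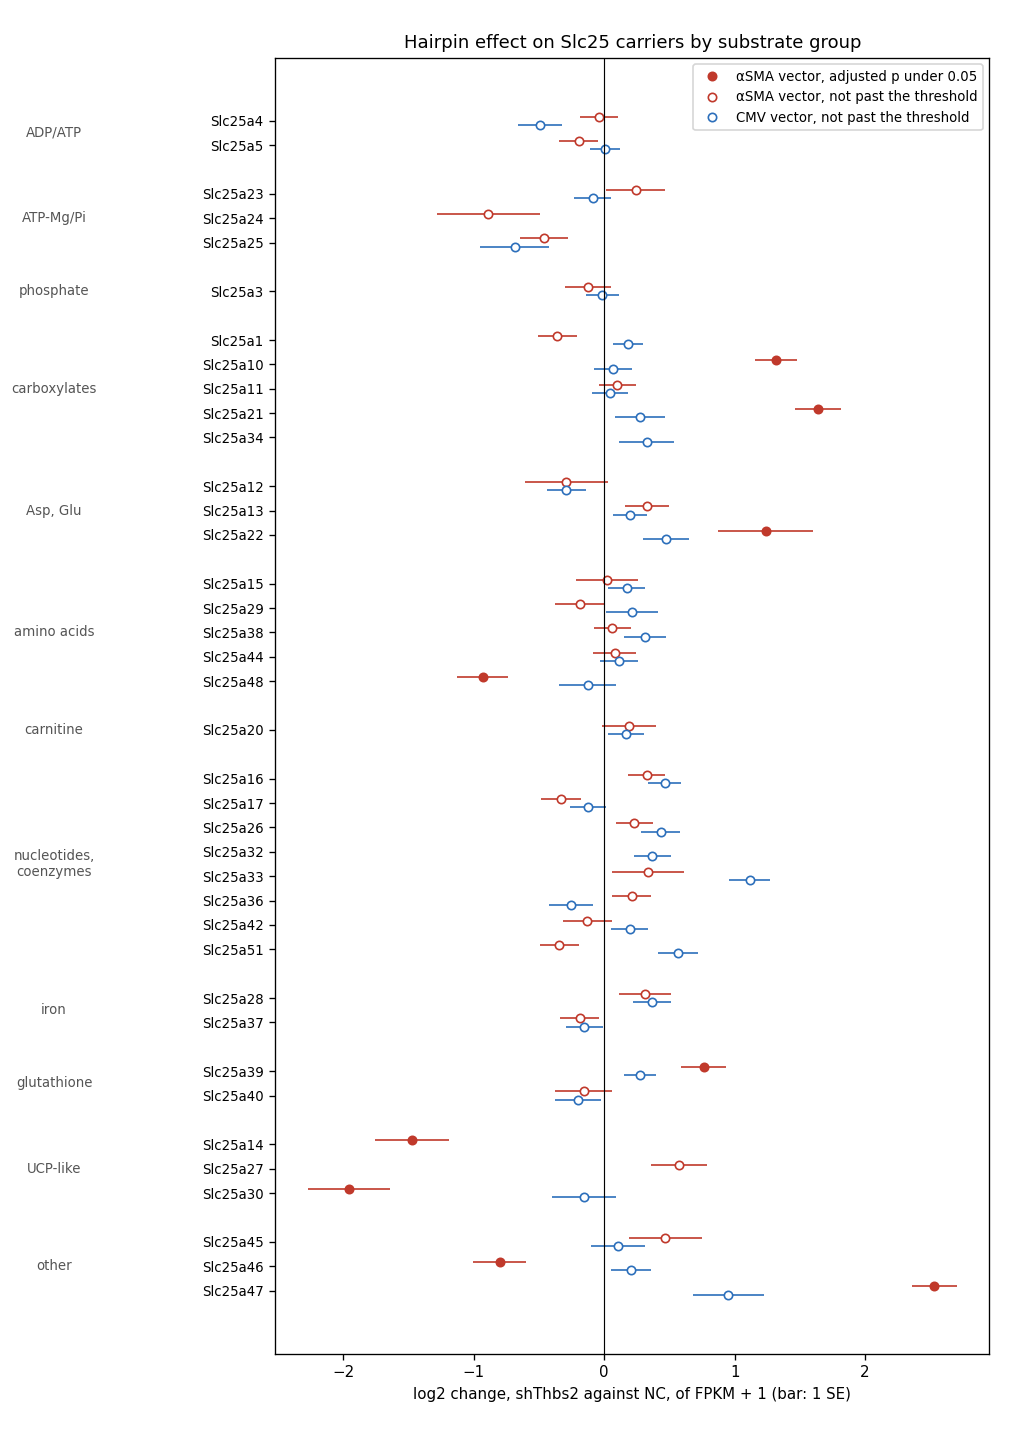
Log2 change of FPKM + 1 between shThbs2 and NC (horizontal axis, bars of 1 SE) for the carriers tested, apart from 1 that is not reported here, grouped by substrate, in the αSMA arm (red) and the CMV arm (blue), with filled points for an adjusted p under 0.05. The filled points to the right are the 5 carriers that rose in the αSMA arm, from 0.76 for Slc25a39 to 2.53 for Slc25a47, and those to the left the 4 that fell, from -0.80 for Slc25a46 to -1.96 for Slc25a30.

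The promoter windows of 5 carriers are printed because the results turn on these genes: 3 rose in the αSMA arm with a change that differed from the CMV arm, 1 fell there, and Slc25a33 had the smallest p in the CMV arm. Each window is the 250 bases before the RefSeq start of the gene in build GRCm38.p6, 5′ to 3′ on the gene's strand. Matches to the motifs listed after the sequences are in capitals. RefSeq windows were found for 36 of the 47 carriers. The windows lie at chr12:108850879-108851128 on the plus strand (Slc25a47), chr12:57197473-57197722 on the minus strand (Slc25a21), chr11:120491587-120491836 on the plus strand (Slc25a10), chr14:75787038-75787287 on the minus strand (Slc25a30) and chr4:149774268-149774517 on the minus strand (Slc25a33).
Slc25a47: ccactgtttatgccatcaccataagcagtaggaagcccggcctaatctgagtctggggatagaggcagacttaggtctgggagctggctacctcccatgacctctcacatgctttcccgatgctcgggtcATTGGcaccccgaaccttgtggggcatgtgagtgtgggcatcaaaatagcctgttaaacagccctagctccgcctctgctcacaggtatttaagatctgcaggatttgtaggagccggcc
Slc25a21: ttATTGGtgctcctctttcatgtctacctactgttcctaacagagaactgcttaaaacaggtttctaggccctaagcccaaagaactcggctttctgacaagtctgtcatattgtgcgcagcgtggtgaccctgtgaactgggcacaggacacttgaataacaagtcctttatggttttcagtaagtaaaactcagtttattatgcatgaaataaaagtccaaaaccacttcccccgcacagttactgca
Slc25a10: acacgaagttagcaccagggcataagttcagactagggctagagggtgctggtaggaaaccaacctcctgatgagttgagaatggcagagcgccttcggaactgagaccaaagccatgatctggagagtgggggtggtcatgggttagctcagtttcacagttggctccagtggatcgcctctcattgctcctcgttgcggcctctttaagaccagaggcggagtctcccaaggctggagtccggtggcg
Slc25a30: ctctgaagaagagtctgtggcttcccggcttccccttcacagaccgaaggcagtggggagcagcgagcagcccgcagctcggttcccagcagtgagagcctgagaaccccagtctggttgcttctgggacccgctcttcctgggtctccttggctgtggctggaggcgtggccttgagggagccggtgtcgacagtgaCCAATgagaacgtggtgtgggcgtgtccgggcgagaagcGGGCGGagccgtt
Slc25a33: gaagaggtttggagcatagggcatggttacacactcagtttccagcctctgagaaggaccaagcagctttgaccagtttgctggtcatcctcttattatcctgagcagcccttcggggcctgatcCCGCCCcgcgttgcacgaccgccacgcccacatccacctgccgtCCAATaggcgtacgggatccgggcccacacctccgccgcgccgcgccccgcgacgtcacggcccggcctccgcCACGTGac
The motifs, searched on both strands, were the E-box CACGTG, the GC box GGGCGG, the CCAAT box CCAAT, the TATA box TATAAA, the extended nuclear receptor half-site AAGGTCA and the core GCATGC of sites for the factor NRF1. The matches in these 5 windows do not overlap each other. Slc25a47 and Slc25a21 each held a CCAAT box on the opposite strand, 120 and 248 bases before the start, and no other motif. Slc25a30 held a CCAAT box and a GC box, and Slc25a33 an E-box 8 bases before its start beside a CCAAT box and a GC box. No motif lay in the window of Slc25a10. Over the carriers with a window, 1 window each, 24 of 36 held a GC box (66.7%), against 32.7% of all 32851 windows. The set of all windows was not reduced to 1 per gene, so the shares are not strictly alike. The CCAAT box was in 16 carrier windows (44.4%), against 33.8% of all windows, and the E-box in 6 (16.7%), against 6.02%. The TATA box was in 1 carrier window (2.78%), against 12.4% of all windows. The half-site was in 1 (2.78%), against 4.08%, and the NRF1 core in 3 (8.33%), against 6.7%. A match describes these letters only, and says nothing of binding.

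The exchange of ADP for ATP and the import of phosphate, both needed for ATP synthesis, carried many of the family's transcripts, and no carrier of either kind passed in either arm. Slc25a5, the main ADP/ATP exchanger of liver, measured 271 and 283 FPKM in αSMA shThbs2 libraries, against 319 and 316 FPKM in αSMA NC libraries. It measured 290.1 and 289.6 FPKM in CMV shThbs2 libraries, against 277 and 299 FPKM in CMV NC libraries. The groups were apart in the αSMA arm and overlapped in the CMV arm, and neither log2 change passed (-0.20, SE 0.15, adjusted p = 0.340, and 0.01, SE 0.11, adjusted p = 0.988). In the αSMA arm the change was 0.02 after median centring, and it passed at -0.60 when libraries were rescaled to the same FPKM sum (adjusted p = 0.0234). Of all 50-base stretches in the transcripts of Slc25a5, 33.8% also occur in other genes, most in Gm5560, so fragments may be shared with these copies. Slc25a4, the exchanger of heart and muscle, measured 6.41 and 7.19 FPKM with shThbs2 and 6.80 and 7.19 FPKM with NC in the αSMA arm. The CMV shThbs2 libraries held 2.66 and 3.34 FPKM of it, against 4.17 and 5.07 FPKM in the CMV NC libraries. There the shThbs2 libraries were lower without overlap, with a log2 change of -0.49 that did not pass (SE 0.17, adjusted p = 0.432). Slc25a3, the phosphate carrier, measured 292 and 313 FPKM in αSMA shThbs2 libraries, against 365 and 298 FPKM in αSMA NC libraries. It measured 174 and 183 FPKM in CMV shThbs2 libraries, against 169 and 192 FPKM in CMV NC libraries. Groups overlapped in both arms, with log2 changes of -0.13 (SE 0.18, adjusted p = 0.600) and -0.02 (SE 0.13, adjusted p = 0.978), and the αSMA value was 0.09 after median centring and -0.53 with equal FPKM sums (adjusted p = 0.0491).

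The calcium-regulated carriers that exchange ATP-Mg for phosphate set the adenine nucleotide content of the matrix. No member of this group passed in either arm. Slc25a25 measured 33.9 and 39.4 FPKM in αSMA shThbs2 libraries, against 56.6 and 45.3 FPKM in αSMA NC libraries. The CMV shThbs2 libraries held 28.7 and 51.4 FPKM, against 62.2 and 62.9 FPKM in the CMV NC libraries. The shThbs2 libraries lay below the NC libraries in both arms, but with a wide gap between the shThbs2 libraries of the CMV arm. The log2 changes of -0.46 (SE 0.18, adjusted p = 0.101) and -0.69 (SE 0.26, adjusted p = 0.456) did not pass, and the αSMA change passed with equal FPKM sums (-0.86, adjusted p = 0.0140) or equal nuclear sums (-0.66, adjusted p = 0.0400). Slc25a23, the isoform with the highest FPKM of the group in the CMV arm, measured 59.4 and 70.7 FPKM there with shThbs2 and 72.4 and 65.8 FPKM with NC, which overlap (log2 change -0.09, SE 0.14, adjusted p = 0.867). Slc25a24 measured 2.28 and 6.38 FPKM with shThbs2 in the αSMA arm, against 7.26 and 9.06 FPKM with NC, a log2 change of -0.89 (SE 0.39, adjusted p = 0.130).

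Among the carriers of di- and tricarboxylates, 2 of the 4 tested in the αSMA arm rose and none fell. Slc25a10, the dicarboxylate carrier, which passes malate and succinate in exchange for phosphate, measured 42.9 and 35.7 FPKM in αSMA shThbs2 libraries, against 15.0 and 15.2 FPKM in αSMA NC libraries. Both shThbs2 libraries were above 2 times the NC level, and the log2 change was 1.32 (SE 0.16, adjusted p = 0.00807). Slc25a10 measured 51.8 and 62.9 FPKM in CMV shThbs2 libraries and 57.5 and 51.6 FPKM in CMV NC libraries. These groups overlapped, with a log2 change of 0.07 (SE 0.15, adjusted p = 0.912). Slc25a21, the oxodicarboxylate carrier that moves 2-oxoadipate from lysine and tryptophan breakdown, measured 6.65 and 5.46 FPKM in αSMA shThbs2 libraries, against 1.11 and 1.41 FPKM in αSMA NC libraries. The mean was 4.81 times higher with shThbs2 and the log2 change 1.64 (SE 0.18, adjusted p = 0.00702). Slc25a21 measured 4.08 and 2.88 FPKM in CMV shThbs2 libraries and 3.01 and 2.35 FPKM in CMV NC libraries, which overlap (0.28, SE 0.19, adjusted p = 0.658).

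Both calls were lost when an αSMA NC library was left out, with adjusted p of 0.0990 and 0.115 for Slc25a10 and 0.0925 and 0.106 for Slc25a21, while the log2 changes stayed between 1.31 and 1.74. Slc25a10 (chr11:120491840-120499187, GRCm38, plus strand) shares 6.60% of its exon bases with the antisense gene Gm11788, which measured 0.46 and 0.14 FPKM with shThbs2 and 0.17 and 0 FPKM with NC in the αSMA arm. Slc25a21 (chr12:56712634-57197472, minus strand) shares 3.88% with Pax9 on the other strand, which stayed at or under 0.03 FPKM there. The sources used here do not say whether strand was used in counting. Slc25a1, the citrate carrier that supplies cytosolic acetyl-CoA for lipogenesis, was the most abundant of the group. It measured 76.2 and 75.1 FPKM in αSMA shThbs2 libraries, against 92.7 and 102 FPKM in αSMA NC libraries, lower without overlap. Its log2 change of -0.36 did not pass (SE 0.15, adjusted p = 0.114), but it passed in 4 of 15 alternatives, at -0.76 with equal FPKM sums (adjusted p = 0.0122). Slc25a1 measured 103 and 105 FPKM in CMV shThbs2 libraries, against 90.5 and 92.3 FPKM in CMV NC libraries, higher without overlap and not past the test (0.18, SE 0.12, adjusted p = 0.634). Slc25a11, which exchanges oxoglutarate for malate, had log2 changes of 0.10 in the αSMA arm and 0.04 in the CMV arm.

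Carriers of aspartate and glutamate feed the malate-aspartate shuttle and supply glutamate to the matrix. Slc25a22, a glutamate carrier, measured 91.0 and 168 FPKM in αSMA shThbs2 libraries, against 65.2 and 41.04 FPKM in αSMA NC libraries. The groups did not overlap, although the libraries within each differed widely, and the log2 change of 1.24 only just passed (SE 0.36, adjusted p = 0.0492). It failed in 11 of 15 alternatives, with an adjusted p of 0.0702 under a replicate block and between 0.0664 and 0.270 without any 1 of the 4 libraries. Slc25a22 measured 138 and 123 FPKM in CMV shThbs2 libraries, against 80.4 and 108 FPKM in CMV NC libraries. It was higher with shThbs2 in both arms without overlap, and the CMV change of 0.47 did not pass (SE 0.17, adjusted p = 0.446). Slc25a13, or citrin, the aspartate/glutamate carrier of liver, measured 39.5 and 33.9 FPKM with shThbs2 and 31.2 and 26.9 FPKM with NC in the αSMA arm. The CMV values were 52.7 and 60.8 FPKM with shThbs2 and 48.2 and 50.3 FPKM with NC. Its shThbs2 libraries were above its NC libraries in both arms, and neither change passed (0.33, SE 0.17, adjusted p = 0.175, and 0.20, SE 0.13, adjusted p = 0.651). Slc25a12, the isoform of excitable tissues, had a log2 change of -0.29 in each arm and passed in neither.

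Of the 5 amino acid carriers tested in the αSMA arm, 1 fell. This was Slc25a48, which has been linked to choline uptake and was placed here by its relation to the amino acid carriers. It measured 0.91 and 0.83 FPKM in αSMA shThbs2 libraries, against 2.18 and 3.00 FPKM in αSMA NC libraries, a log2 change of -0.93 (SE 0.19, adjusted p = 0.0218). Its level is low, and leaving out any of the 4 libraries ended the call, with adjusted p between 0.0627 and 0.124. Slc25a48 measured 2.17 and 3.81 FPKM in CMV shThbs2 libraries and 3.35 and 3.19 FPKM in CMV NC libraries, which overlap (-0.13, SE 0.22, adjusted p = 0.881). Slc25a15, which exchanges ornithine for citrulline in the urea cycle, was the most abundant carrier of the group. It measured 91.9 and 128 FPKM in αSMA shThbs2 libraries and 122 and 94.0 FPKM in αSMA NC libraries. It measured 112 and 125 FPKM in CMV shThbs2 libraries and 96.7 and 113 FPKM in CMV NC libraries. Groups overlapped in both arms, and the log2 changes of 0.02 (SE 0.23, adjusted p = 0.950) and 0.17 (SE 0.14, adjusted p = 0.717) did not pass, with -0.39 in the αSMA arm under equal FPKM sums. Slc25a38, which brings glycine into the matrix for heme synthesis, and Slc25a44, a carrier of branched-chain amino acids, had αSMA log2 changes of 0.06 and 0.08 and CMV changes of 0.31 and 0.11, none of them past the test.

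Slc25a20, the carnitine-acylcarnitine carrier through which long-chain fatty acids reach β-oxidation, did not pass in either arm. It measured 45.2 and 41.8 FPKM in αSMA shThbs2 libraries and 45.1 and 32.1 FPKM in αSMA NC libraries. It measured 44.7 and 49.1 FPKM in CMV shThbs2 libraries and 44.9 and 38.8 FPKM in CMV NC libraries. The groups overlapped in both arms, with log2 changes of 0.19 (SE 0.21, adjusted p = 0.495) and 0.16 (SE 0.14, adjusted p = 0.724), and the αSMA change was -0.21 under equal FPKM sums.

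The carriers of nucleotides, coenzymes and vitamins held 8 genes tested in the αSMA arm and 9 in the CMV arm, of which none passed. This group contains the smallest p of the CMV arm. Slc25a33, which carries pyrimidine nucleotides into the matrix, measured 21.8 and 17.5 FPKM in CMV shThbs2 libraries, against 8.05 and 8.98 FPKM in CMV NC libraries. The mean was 2.31 times higher without overlap, and the log2 change was 1.11 (SE 0.16, adjusted p = 0.137). This change was 1.04 without NC replicate 1 and 1.18 without NC replicate 2. In the αSMA arm Slc25a33 measured 18.5 and 32.0 FPKM with shThbs2 and 17.8 and 20.6 FPKM with NC, which overlap (0.33, SE 0.28, adjusted p = 0.374). The gene (chr4:149744036-149774277, minus strand) shares 14.9% of its exon bases with the antisense gene Gm13068, at 0.13 to 0.43 FPKM in the αSMA libraries. Gm13068 has no value in the CMV arm, so its level could not be set beside the CMV change.

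Slc25a51, the importer of NAD+, measured 17.4 and 21.0 FPKM in CMV shThbs2 libraries, against 13.5 and 11.7 FPKM in CMV NC libraries. In the αSMA arm it measured 22.9 and 25.3 FPKM with shThbs2, against 29.8 and 32.0 FPKM with NC. The groups were apart in opposite directions, although neither change passed on its own (0.57 in the CMV arm, SE 0.15, adjusted p = 0.343, and -0.35 in the αSMA arm, SE 0.15, adjusted p = 0.122). Slc25a16, a carrier related to coenzyme A transport, was higher with shThbs2 in both arms without overlap. It measured 25.3 and 27.4 FPKM with shThbs2 and 20.6 and 20.9 FPKM with NC in the αSMA arm (0.33, SE 0.14, adjusted p = 0.127). In CMV libraries it measured 20.3 and 18.7 FPKM with shThbs2 and 13.7 and 14.1 FPKM with NC (0.46, SE 0.13, adjusted p = 0.354). Slc25a26, the importer of the methyl donor S-adenosylmethionine, was also higher without overlap in both. It measured 4.96 and 5.25 FPKM with shThbs2 against 4.23 and 4.18 FPKM with NC in the αSMA arm, and 2.88 and 3.46 FPKM with shThbs2 against 2.14 and 2.03 FPKM with NC in the CMV arm (log2 changes of 0.23, adjusted p = 0.247, and 0.43, SE 0.15, adjusted p = 0.445). The signs of the αSMA changes of Slc25a16 and Slc25a26 under equal FPKM sums were not recorded.

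Slc25a17, the peroxisomal carrier of coenzyme A, FAD and NAD+, had the highest FPKM of the group in every αSMA library and both CMV NC libraries, but not in the CMV shThbs2 libraries. It measured 36.4 and 42.6 FPKM in αSMA shThbs2 libraries, against 50.5 and 49.1 FPKM in αSMA NC libraries, and 20.5 and 20.4 FPKM in CMV shThbs2 libraries, against 20.7 and 24.2 FPKM in CMV NC libraries. It was lower with shThbs2 in both arms without overlap, and neither change passed (-0.33, SE 0.16, adjusted p = 0.150, and -0.13, SE 0.14, adjusted p = 0.796). Slc25a32, linked to folate and FAD import, was tested only in the CMV arm, where it measured 4.98 and 4.93 FPKM with shThbs2, against 3.90 and 3.34 FPKM with NC (0.37, adjusted p = 0.463). In the αSMA libraries it did not exceed 0.65 FPKM.

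The mitoferrins Slc25a28 and Slc25a37 import iron for heme and iron-sulfur clusters, and neither passed in either arm. Slc25a28 measured 18.5 and 25.4 FPKM with shThbs2 and 18.3 and 16.2 FPKM with NC in the αSMA arm. The CMV values were 11.7 and 11.3 FPKM with shThbs2 and 7.91 and 9.58 FPKM with NC. The shThbs2 libraries were above the NC libraries in both arms, by log2 changes of 0.31 (SE 0.20, adjusted p = 0.257) and 0.37 (SE 0.15, adjusted p = 0.480), the first of which was -0.07 under equal FPKM sums. Slc25a37 had the opposite sign, with log2 changes of -0.19 and -0.15, and its FPKM exceeded that of Slc25a28 in all 4 NC libraries.

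Slc25a39, which imports glutathione into mitochondria, rose in the αSMA arm. It measured 295 and 356 FPKM in shThbs2 libraries, against 184 and 198 FPKM in NC libraries, and the log2 change was 0.76 (SE 0.17, adjusted p = 0.0267). It had the highest FPKM of all carriers in both αSMA shThbs2 libraries and lay below Slc25a3 and Slc25a5 in both αSMA NC libraries. The call did not hold in 7 of 15 alternatives, with 0.35 under equal FPKM sums (adjusted p = 0.149). It was also lost without shThbs2 replicate 3 (adjusted p = 0.0514), NC replicate 3 (0.170) or NC replicate 4 (0.159). Slc25a39 measured 307 and 309 FPKM in CMV shThbs2 libraries, against 238 and 271 FPKM in CMV NC libraries. It was higher there without overlap and did not pass (0.27, SE 0.12, adjusted p = 0.527). Its paralogue Slc25a40, at 1.65 and 2.66 FPKM with shThbs2 and 2.22 and 2.75 FPKM with NC in the αSMA arm, did not pass in either arm.

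The carriers related to uncoupling proteins, which dissipate the proton gradient or move small anions, fell in 2 of 3 cases in the αSMA arm. Slc25a30, first described in kidney mitochondria, measured 4.29 and 8.57 FPKM in αSMA shThbs2 libraries, against 30.3 and 23.4 FPKM in αSMA NC libraries. The mean with shThbs2 was 0.240 times that with NC, and the log2 change was -1.96 (SE 0.32, adjusted p = 0.0132). Slc25a30 measured 3.72 and 2.01 FPKM in CMV shThbs2 libraries and 2.81 and 3.64 FPKM in CMV NC libraries, which overlap (-0.16, SE 0.25, adjusted p = 0.864). Slc25a14, best known from brain, measured 0.49 and 1.56 FPKM in αSMA shThbs2 libraries, against 4.42 FPKM in each αSMA NC library (-1.47, SE 0.29, adjusted p = 0.0188). It was under the limit for testing in the CMV arm, at 1.16 and 0.678 FPKM with shThbs2 and 1.04 and 1.03 FPKM with NC. Slc25a27, the third of the group, measured 1.71 and 2.33 FPKM with shThbs2 and 1.25 and 0.81 FPKM with NC in the αSMA arm, and did not pass (0.57, SE 0.21, adjusted p = 0.0863). The calls of Slc25a30 and Slc25a14 were lost without shThbs2 replicate 3 (adjusted p = 0.0515 and 0.0507), without either NC library (adjusted p between 0.119 and 0.144) and without a filter on low values (adjusted p = 0.0569 and 0.0723), with log2 changes still at or below -1.08.

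Of the carriers with no agreed transport substrate, Slc25a47 rose and Slc25a46 fell in the αSMA arm. Slc25a47, a carrier found mainly in liver, measured 222 and 184 FPKM in αSMA shThbs2 libraries, against 36.3 and 32.1 FPKM in αSMA NC libraries. The mean was 5.93 times higher with shThbs2, the greatest rise of the family in this arm, with a log2 change of 2.53 (SE 0.17, adjusted p = 0.00387). The CMV shThbs2 libraries held 206 and 237 FPKM, against 152 and 84.9 FPKM in the CMV NC libraries. It was higher there too without overlap, with a gap between the NC libraries, and did not pass (0.95, SE 0.27, adjusted p = 0.373). The CMV change rested on which NC library was used, as it was 1.37 without NC replicate 1 and 0.53 without NC replicate 2. The αSMA call was lost without NC replicate 3 (2.62, adjusted p = 0.0683) or NC replicate 4 (2.44, adjusted p = 0.0875). The gene lies at chr12:108836046-108856815 (GRCm38, plus strand), and its RefSeq start is 15083 bases inside that span. Slc25a29, a carrier of basic amino acids on the minus strand, ends its neighbouring span 162 bases away, and did not pass in either arm. It measured 0.86 and 1.19 FPKM with shThbs2 and 1.22 and 1.37 FPKM with NC in the αSMA arm, where its log2 change was -0.18 (SE 0.19, adjusted p = 0.468).

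Slc25a46, an outer membrane protein of mitochondrial fission and fusion, measured 8.06 and 11.6 FPKM in αSMA shThbs2 libraries, against 17.7 and 17.6 FPKM in αSMA NC libraries. Both shThbs2 libraries were lower (-0.80, SE 0.20, adjusted p = 0.0337), and the change did not pass after median centring (-0.58, adjusted p = 0.0532). Without shThbs2 replicate 3 it was -0.56 (adjusted p = 0.0698), and without NC replicate 3 or 4 the adjusted p was 0.185 and 0.201. Slc25a46 measured 8.68 and 9.60 FPKM in CMV shThbs2 libraries and 7.02 and 8.58 FPKM in CMV NC libraries, higher without overlap and not past the test (0.21, SE 0.15, adjusted p = 0.682). Slc25a46 shares 7.06% of its exon bases with B930094E09Rik on the other strand. In the αSMA arm B930094E09Rik measured 0.17 and 0.07 FPKM with shThbs2 and 0.37 and 0.16 FPKM with NC. Slc25a45 overlapped between groups in both arms, with log2 changes of 0.47 and 0.10.

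**Figure D3:**
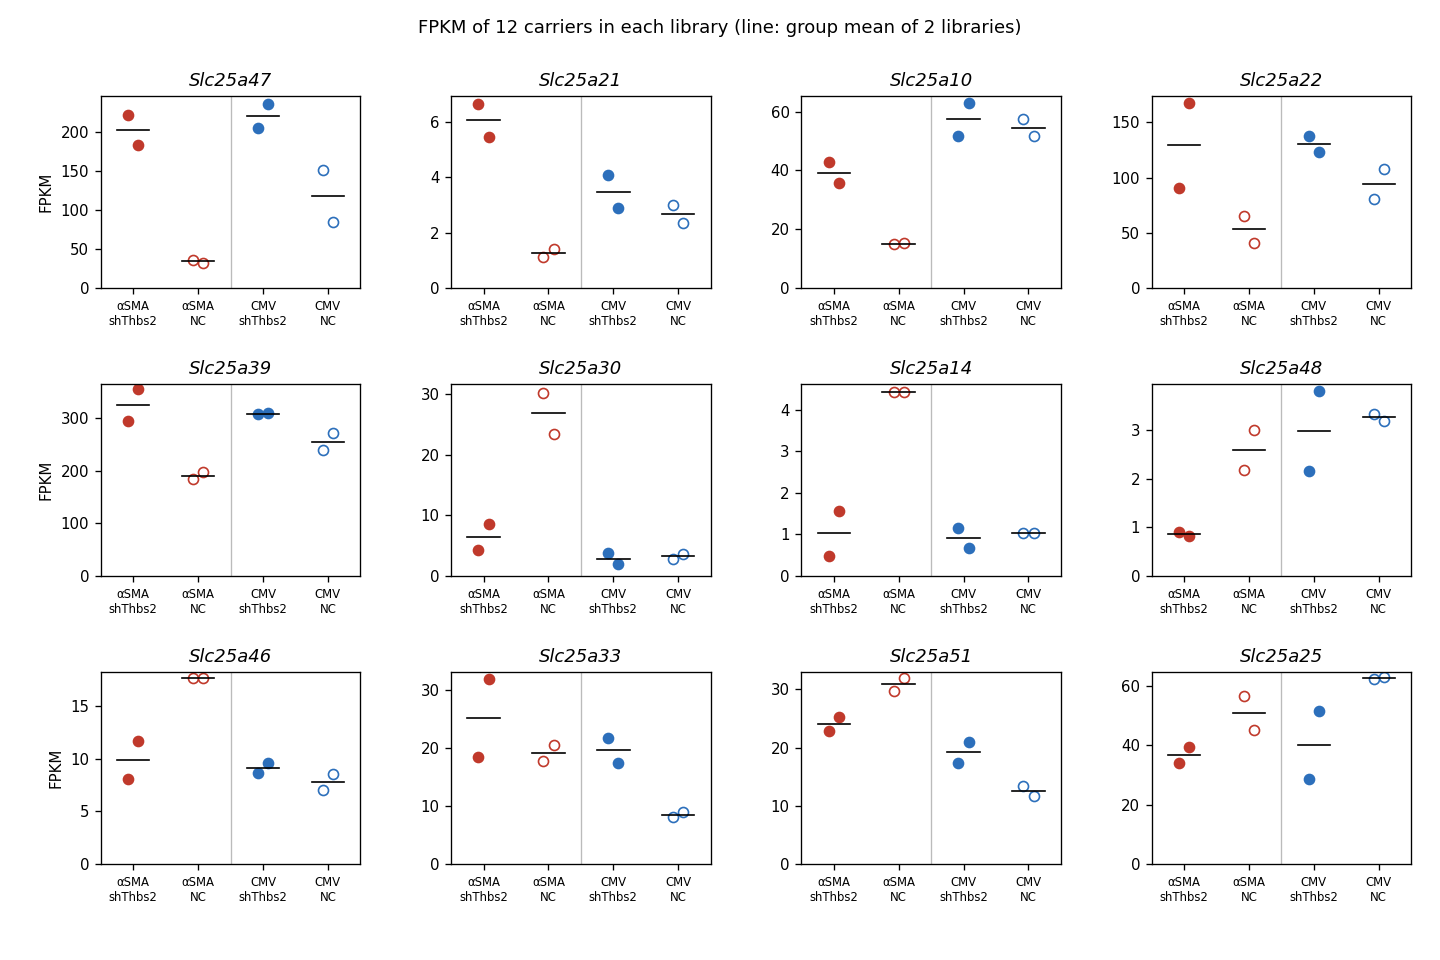
FPKM (vertical axis, scaled per gene) of 12 carriers in each of the 8 libraries, shThbs2 as filled and NC as open points, with a line at the mean of 2 libraries. The αSMA arm (red) and the CMV arm (blue) come from tables normalised separately, so levels are to be read within an arm: Slc25a47, Slc25a21 and Slc25a10 lie higher with shThbs2 in the αSMA arm, Slc25a30, Slc25a14, Slc25a48 and Slc25a46 lower, and Slc25a33 lies higher in the CMV arm.

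Whether the hairpin effect differed between vectors was tested for the 34 carriers measured in both arms, as the αSMA change minus the CMV change in 1 limma model of all 8 libraries. The difference passed for 6 carriers, 17.6%, against 25.1% of all 10245 features. It was above 0 for 3 of them and below 0 for 3, beside 7.71% and 17.4% of all features. It was above 0 for Slc25a47 (1.58, SE 0.36, adjusted p = 0.0166), Slc25a21 (1.36, SE 0.26, adjusted p = 0.0103) and Slc25a10 (1.25, SE 0.22, adjusted p = 0.00832). It was below 0 for Slc25a30 (-1.80, SE 0.43, adjusted p = 0.0208), Slc25a46 (-1.01, SE 0.26, adjusted p = 0.0249) and Slc25a51 (-0.91, SE 0.21, adjusted p = 0.0179). For Slc25a46 and Slc25a51 the groups were apart in opposite directions in the 2 arms. For Slc25a39 and Slc25a22, which rose in the αSMA arm, the difference did not pass (0.49, SE 0.21, adjusted p = 0.119, and 0.77, SE 0.44, adjusted p = 0.216), nor did it for Slc25a33 (-0.78, SE 0.34, adjusted p = 0.116) or Slc25a48 (-0.80, SE 0.29, adjusted p = 0.0740). By sign, 16 carriers were higher and 9 lower with shThbs2 in both arms, 2 were higher in the αSMA arm and lower in the CMV arm, and 7 the reverse. With equal FPKM sums the difference passed for 12 carriers, 3 above and 9 below 0, beside 45.6% of all features. With equal nuclear sums it passed for 9, 3 above and 6 below, beside 32.4% of all features. With median centring it passed for 8, 6 above and 2 below, beside 21.8% of all features. Leaving out any 1 library kept the calls of Slc25a10 and Slc25a21. That of Slc25a51 was lost without CMV shThbs2 replicate 2 or αSMA NC replicate 4, and that of Slc25a47 without either of these libraries or CMV shThbs2 replicate 1. Slc25a30 no longer passed without CMV shThbs2 replicate 1, CMV NC replicate 1 or either αSMA NC library, and Slc25a46 passed only without CMV NC replicate 2 or αSMA shThbs2 replicate 4. The adjusted p in these lost calls lay between 0.0512 and 0.0886. The call of Slc25a51 was also lost with median centring (-0.66, adjusted p = 0.0560).

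**Figure D4:**
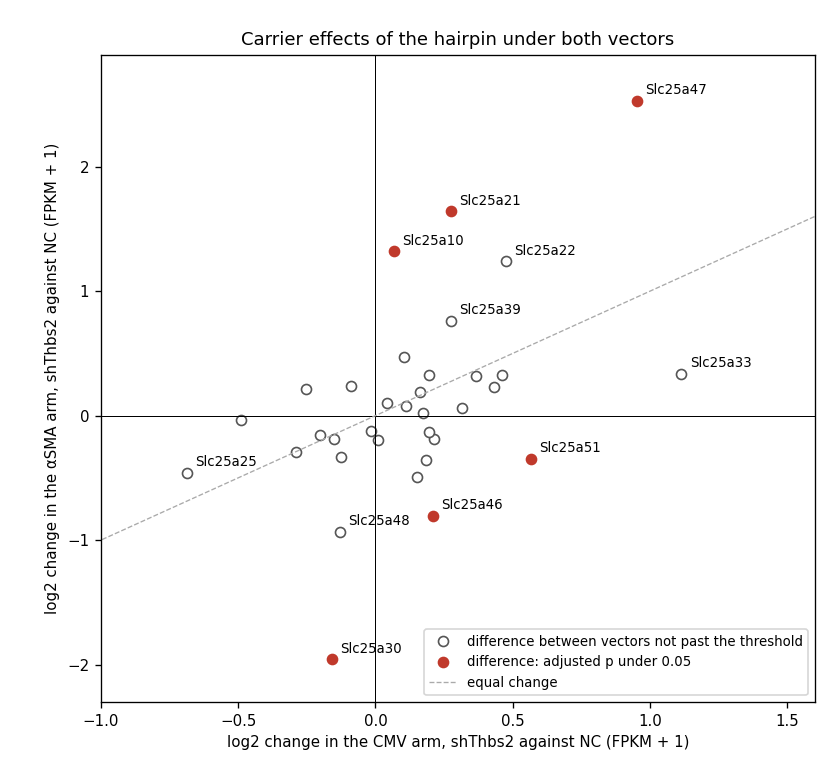
Log2 change of FPKM + 1 between shThbs2 and NC in the αSMA arm (vertical axis) against that in the CMV arm (horizontal axis) for the 34 carriers tested in both, with a dashed line of equal change. Filled points mark the 6 carriers whose change differed between vectors with an adjusted p under 0.05: Slc25a47, Slc25a21 and Slc25a10 lie above the line and Slc25a51, Slc25a46 and Slc25a30 below it.

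Genes that work beside the carriers were counted from written lists, and no gene of any of these lists passed in the CMV arm. Calls in the lists come from the FPKM values as deposited. They were not recomputed under the alternatives used for the carriers. Of the family members under other names, 1 of 3 fell in the αSMA arm, the uncoupling protein Ucp2, with 14.1 and 17.1 FPKM in shThbs2 libraries against 32.2 and 27.2 FPKM in NC libraries (-0.89, SE 0.18, adjusted p = 0.0197). Of 13 other transporters of mitochondrial membranes, 4 rose and 1 fell. Both subunits of the pyruvate carrier were among those that rose. Mpc1 measured 424 and 505 FPKM in shThbs2 libraries, against 296 and 214 FPKM in NC libraries (0.87, adjusted p = 0.0342). Mpc2 measured 265 and 239 FPKM in shThbs2 libraries, against 156 and 133 FPKM in NC libraries (0.81, adjusted p = 0.0223). Of 15 genes of the machinery that imports carriers into the inner membrane, 2 rose and 1 fell, the last being Timm29 (-1.13, adjusted p = 0.00881). Their median log2 change was 0.06.

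Enzymes at both ends of the carriers also differed in the αSMA arm. Of 4 malate-aspartate shuttle enzymes 2 rose, Mdh2 by 0.85 (adjusted p = 0.0152) and Got2 by 0.50 (adjusted p = 0.0496) on the log2 scale. Of 6 enzymes from citrate to fatty acids 3 rose and none fell, and the list's median was 1.08. Among them Acaca, the acetyl-CoA carboxylase of lipogenesis, measured 44.2 and 35.5 FPKM in shThbs2 libraries, against 13.7 and 12.5 FPKM in NC libraries (1.53, SE 0.17, adjusted p = 0.00735). Of 7 urea cycle and related enzymes 3 rose and 1 fell, and their median log2 change was -0.011. Among those that rose, Asl measured 335 and 272 FPKM in shThbs2 libraries, against 100.5 and 78.7 FPKM in NC libraries (1.75, adjusted p = 0.00765). The 1 that fell was Glud1, at 214 and 207 FPKM in shThbs2 libraries, against 530 and 565.5 FPKM in NC libraries (-1.38, adjusted p = 0.00728). Of 6 carnitine shuttle enzymes none rose and 2 fell, Acsl5 (-1.19, adjusted p = 0.0105) and Crat (-0.78, adjusted p = 0.0238). Of 12 genes of heme synthesis and iron-sulfur assembly 3 rose and 1 fell, with Iscu at 1.06 (adjusted p = 0.0152) and Alas1, the first enzyme of heme synthesis, at -1.34 (adjusted p = 0.0101). These counts stand beside 13.3% of all features that rose and 22.8% that fell, and the median log2 change of -0.16.

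All 13 mRNAs of the mitochondrial genome rose in the αSMA arm, with a median log2 change of 1.32, and 3 of 15 nuclear genes of ATP synthase rose and none fell, with a median of 0.36. The 10 regulators of mitochondrial biogenesis went the other way, as 6 fell and none rose, with a median of -0.65. Tfam, which packages and transcribes mitochondrial DNA, measured 11.0 and 15.0 FPKM in shThbs2 libraries, against 44.1 and 47.5 FPKM in NC libraries (-1.76, SE 0.19, adjusted p = 0.00703). The coactivator Ppargc1a measured 0.67 and 0.81 FPKM in shThbs2 libraries, against 3.41 and 4.59 FPKM in NC libraries (-1.51, SE 0.19, adjusted p = 0.00881). The CMV medians were 0.21 for the mitochondrial mRNAs, 0.06 for ATP synthase and 0.07 for the regulators.

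Cell type markers were counted in the same way, since in whole liver fewer cells of a type and less RNA per cell cannot be told apart. Of all features of the αSMA arm, 13.3% rose, 22.8% fell and 46.2% were lower with shThbs2 without overlap. In the αSMA arm 2 of 10 hepatocyte markers rose and 1 fell, and their summed level was 44957 and 36631 FPKM with shThbs2 and 48840 and 36450 FPKM with NC. Of 10 stellate cell and myofibroblast markers none rose and 2 fell, Acta2 and Pdgfrb, while 8 were lower with shThbs2 without overlap and the median log2 change was -0.52. Their sum was 297 and 443 FPKM with shThbs2 and 301 and 359 FPKM with NC, most of it from Dcn, at 219 and 344 FPKM with shThbs2 against 187 and 209.6 FPKM with NC. Of 11 leukocyte and macrophage markers 1 rose and 5 fell, with a sum of 413 and 475 FPKM in shThbs2 libraries, against 601 and 654 FPKM in NC libraries. Cd68 of macrophages measured 18.0 and 22.1 FPKM with shThbs2, against 64.2 and 68.7 FPKM with NC (-1.69, adjusted p = 0.00644). The 1 that rose was Clec4f, also of macrophages. It measured 102 and 96.35 FPKM with shThbs2, against 54.2 and 36.7 FPKM with NC (1.14, adjusted p = 0.0191). Of 6 endothelial markers 1 fell (sums of 50.8 and 64.0 FPKM with shThbs2 and 80.4 and 57.3 FPKM with NC), and so did 1 of 4 cholangiocyte markers, Sox9 (sums of 6.54 and 11.7 FPKM with shThbs2, against 17.1 and 23.96 FPKM with NC). None of the 5 erythroid markers tested passed, and their sum was 880 and 1988 FPKM with shThbs2 and 2099 and 2377 FPKM with NC. No striated muscle marker reached the limit for testing, with sums of at most 0.24 FPKM in the αSMA libraries. In the CMV arm the hepatocyte sums were 51630 and 47227 FPKM with shThbs2, against 66431 and 65990 FPKM with NC. Most of each sum came from Alb, at 35580 and 33418 FPKM with shThbs2 against 49852 and 50033 FPKM with NC. Of the 10 hepatocyte markers 5 were higher and 5 lower there, with a median log2 change of -0.04. The stellate cell sums in the CMV arm were 114 and 123 FPKM with shThbs2, against 141 and 147 FPKM with NC. Of the 10 stellate cell markers 7 were lower without overlap, beside 17.5% of all features. Leukocyte markers summed there to 231 and 243 FPKM with shThbs2 and 363 and 183 FPKM with NC, endothelial markers to 40.2 and 39.8 FPKM with shThbs2 and 38.7 and 44.1 FPKM with NC, and cholangiocyte markers to 4.05 and 4.56 FPKM with shThbs2, against 5.16 and 6.69 FPKM with NC. Erythroid markers summed to 721 and 293 FPKM with shThbs2 and 2977 and 460 FPKM with NC in that arm, so CMV NC replicate 1 stood above the other libraries. Without that library the CMV log2 change of Slc25a47 was 1.37, against 0.95 with it. The part of these markers in the carrier results was not tested.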

How the data were processed

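For the 8 liver libraries of poly(A) RNA the authors deposited FPKM values, in 1 table for each arm. The submitters' processing notes name build GRCm38 and the tools Bowtie2 2.3.5, HISAT2 2.1.0, HISAT and Cufflinks. The table each tool made, and any use of strand, are not given in the sources used here. Without counts, library depth is unknown. Each arm was fitted alone in limma 3.58.1 (R 4.3.3) on log2(FPKM + 1), two-sided, with trended empirical Bayes and no replicate block. Features averaging 1 FPKM or more over the arm entered, and p-values were adjusted by Benjamini-Hochberg with a threshold of 0.05. The vectors' effects were compared in 1 model of all 8 libraries. The code was tested on simulated data. Coordinates, exon overlaps and shared 50-base stretches come from GENCODE M21, and promoter windows from RefSeq.

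Carriers past the threshold are named with their values, and so are the 8 with the smallest p where fewer than 5 passed, and the one with the highest FPKM of each substrate group. The values of 1 carrier, which is in the counts, are not reported here. Other carriers are named for context after their values were seen. Members, substrate groups and gene lists were chosen with earlier results of these data known. Results were recomputed without a filter, with a filter at 5 FPKM, a pseudocount of 0.1, equal FPKM sums over all or nuclear features, median centring, quantile normalization, robust empirical Bayes, no intensity trend, a replicate block, the joint model and leaving out each library.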

Additional observations from a re-analysis of the deposited data

Results flagged for a closer look

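For 6 carriers the effect of the hairpin differed between the vectors by a test of the difference itself (αSMA change minus CMV change on the log2 scale, limma, adjusted p under 0.05 over 10245 features). The difference was 1.58 for Slc25a47, 1.36 for Slc25a21 and 1.25 for Slc25a10, each with a change further above 0 in the αSMA arm. It was -1.80 for Slc25a30, whose log2 change was -1.96 in the αSMA arm and -0.16 in the CMV arm. It was -1.01 for Slc25a46 and -0.91 for Slc25a51, each lower with shThbs2 in the αSMA arm and higher with shThbs2 in the CMV arm. Among all features 25.1% passed this test, and the arms also differ in platform and provider, which cannot be told apart from the vector. Groups of 2 libraries are too small for a check of single outlying libraries.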

How the results depend on the processing

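Of the 9 calls in the αSMA arm, those of Slc25a10, Slc25a21 and Slc25a47 were lost only when NC replicate 3 or 4 was left out. The αSMA count of 9 became 3 without a filter and 16 with equal FPKM sums. The CMV count stayed at 0 under the alternatives that kept all libraries, where at most 0.156% of all features passed. It did not stay at 0 in every fit with 1 library left out. The count of 6 carriers that differed between arms became 12 with equal FPKM sums and ranged from 2 to 7 when 1 library was left out. A lone library was assumed to vary like the libraries of the other group. With equal FPKM sums, 52.1% of all features passed in the αSMA arm and 45.6% passed for the difference between arms. Without a filter 7.28% of all features passed in the αSMA arm. The αSMA median of 0.02 became -0.39 with equal FPKM sums, -0.18 with equal nuclear sums, 0.24 with median centring and 0.17 with quantile normalization, and ranged from -0.048 to 0.035 with 1 library left out. The CMV median of 0.17 became 0.081 with quantile normalization and ranged from 0.084 to 0.20 with 1 library left out. Same-numbered libraries showed no strong shared deviation over all features (correlation of 0.0400 in the CMV arm and 0.00134 in the αSMA arm). With 2 libraries per group this cannot settle whether they were paired by design. With the replicate block 8 αSMA carriers, 0 CMV carriers and 6 differences passed, and Slc25a22 was the call lost. Of all features 33.2%, 0.156% and 21.7% then passed, in the same order.

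No change that passed turned its direction. Single log2 changes were followed only for the carriers that the rules above name in an arm, so the list below is not complete for the family. Among these, log2 changes that did not pass changed sign as follows, and the cause was not tested beyond the construction of each alternative. In the CMV arm Slc25a5 became -0.022 with equal FPKM sums, -0.023 with median centring and -0.11 with quantile normalization. With 1 library left out, CMV values ranged from -0.046 to 0.063 for Slc25a5, from -0.21 to 0.034 for Slc25a23, from -0.107 to 0.077 for Slc25a3 and from -0.48 to 0.17 for Slc25a30. In the αSMA arm, equal FPKM sums gave -0.21 for Slc25a20, -0.075 for Slc25a28 and -0.39 for Slc25a15. Equal nuclear sums gave -0.011 for Slc25a20 and -0.18 for Slc25a15, and quantile normalization gave -0.14 for Slc25a15. Median centring gave 0.022 for Slc25a5 and 0.092 for Slc25a3. With 1 library left out, αSMA values ranged from -0.050 to 0.43 for Slc25a20, from -0.22 to 0.26 for Slc25a15 and from -0.27 to 0.020 for Slc25a3. Depth is unknown, so no counting error can be given for carriers of low FPKM.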
